A study of Mus musculus with 14 samples.

Results

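The tumor necrosis factor (TNF) superfamily comprises secreted or membrane-bound ligands, most of which act as trimers, and the receptors they bind. They were followed here in RNA from mouse intervertebral discs (IVDs) of 2 models of type 2 diabetes. Members were taken from the gene count table by name, as protein-coding genes called *Tnf*, *Lta*, *Ltb*, *Ltbr*, *Fas*, *Fasl*, *Cd40*, *Cd40lg*, *Cd27*, *Cd70* or carrying a numbered *Tnfsf* (ligand) or *Tnfrsf* (receptor) symbol. This gave 41 of the 55487 genes in the table, 17 ligands and 24 receptors. Of these, 25 had a CPM (counts per mega-count of the library) above 1 in at least 3 libraries and could be tested (5 ligands and 20 receptors), and 16 were too low to test. *Tnfsf11*, *Tnfrsf13b* and *Tnfrsf13c* passed this minimum through STZ-HFD replicate 1, and 22 could be tested without that library.

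Discs were taken from 4 groups of male mice. The db/db mice (n = 3) were homozygous for the *Lepr*-db mutation of the leptin receptor and 3 months old, and their heterozygous db/+ littermates (n = 3) were the controls. The STZ-HFD mice (n = 4) were C57BL/6J mice, 12 weeks old at the start and skeletally mature, that received a high-fat diet for 4 to 6 weeks, a single 100 mg/kg injection of streptozotocin (STZ), a toxin of the insulin-producing beta cell, and the same diet for 12 more weeks, while Con+Veh mice (n = 4) of the same strain received standard chow and the citrate buffer alone. The db/db mutation is present in the whole body from conception, and STZ-HFD diabetes combines a diet with a drug. The controls of the models differ in genotype, treatment and age at harvest, so each model was compared with its own controls. Each library came from 1 mouse, with its 5 tail discs pooled.

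The gene table holds whole-number counts without normalization. Library weights in the fit ran from 0.275 for Con+Veh replicate 1 to 3.05 for Con+Veh replicate 3. Library totals ran from 16076908 to 58943169 counts, of which 28.1% to 60.2% fell on ribosomal RNA genes, and the members together received 2606 to 10416 counts per library. A count of 3, taken as the floor of detection for counting error only, corresponded to 0.0509 to 0.187 CPM. Disc and cartilage markers, 9 genes, were abundant as a sum in every library but lower in STZ-HFD. They summed to 958 to 2009 CPM there against 3588 to 16298 CPM in Con+Veh, with 6 of the 9 called lower. *Chad* and *Acan* held most of these counts in both groups, whereas *Matn3* had 15 to 92 counts per library. The library STZ-HFD replicate 1 stood apart, with 42626 genes detected at the lowest total count, against 25194 to 29924 genes in the other 13 libraries. Results of the STZ-HFD comparison are therefore given with and without it where it matters.

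In the TNF superfamily, receptors fall into those with a cytoplasmic death domain, such as FAS and TNF receptor 1, those that recruit TNF receptor-associated factors (TRAFs), and decoys that bind a ligand without passing on a signal. Most signals converge on the transcription factor NF-κB and on JNK kinases, and death receptors can also activate caspases. In the disc, TNF is best known as an inducer of matrix-degrading enzymes, and in the adjoining vertebral bone the ligand RANKL, its receptor RANK and its decoy osteoprotegerin set the formation of osteoclasts.

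Per exon length (RPKM, CPM divided by the kilobases of exon), receptors were the abundant part of the family. The soluble decoy *Tnfrsf11b* (osteoprotegerin) had the highest mean level over the 14 libraries, 7.37 RPKM with a range of 3.57 to 12.2, followed by the main TNF receptor *Tnfrsf1a* at 6.53, the death receptor *Tnfrsf21* (DR6) at 6.20 and the lymphotoxin beta receptor *Ltbr* at 4.25. The ranges of these 4 genes overlapped. Among ligands, *Tnfsf12* (TWEAK), a cytokine that acts on injured and regenerating tissue, was the only one with a mean above 1 RPKM, at 2.76, whereas 12 of the 24 receptors passed that level, *Tnfrsf10b* through a single library at 13.8 RPKM with the other 13 at 0.251 to 0.639. *Tnfsf12* shared 48.3% of its exon bases with *Tnfsfm13*, an annotated read-through gene on the same strand that joins it to *Tnfsf13*, so how its reads were divided is uncertain. The other 4 ligands tested had mean levels of 0.196 to 0.728 RPKM.

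**Figure D1:**
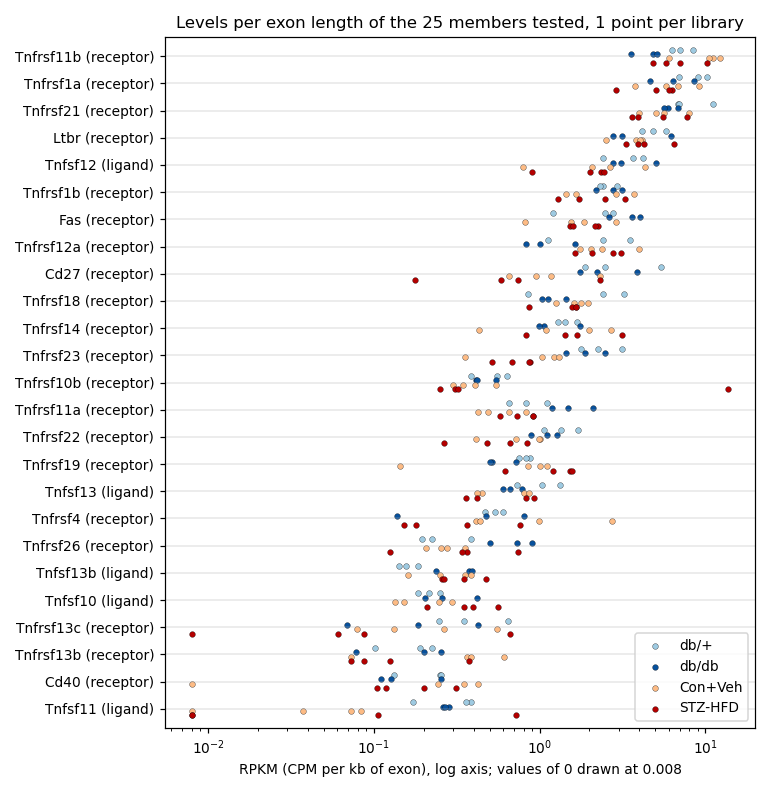
RPKM of each of the 25 members tested (log axis), with 1 point per library colored by group and members ordered by their mean over the 14 libraries. Receptors occupy the upper rows, with *Tnfsf12* the only ligand above a mean of 1 RPKM, and *Tnfrsf10b* has a single STZ-HFD library at 13.8 RPKM.

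No member was called in either model. A call required a Benjamini-Hochberg adjusted p under 0.05 over the 16915 genes tested together with a change of at least 1 on the log2 scale, in limma's voomWithQualityWeights on all 14 libraries. In db/db, 0 of 25 members were called, where 1.66% of all genes tested were, and 6 had an unadjusted p under 0.05, 24% of the members against 21.1% of all genes. In STZ-HFD, 0 of 25 were called against a background of 2.61%, and 2 had an unadjusted p under 0.05, 8% against 17.9%. The count of 0 held in edgeR's quasi-likelihood test and in DESeq2. At an unadjusted p under 0.05, edgeR gave 5 members in db/db and 2 in STZ-HFD, and DESeq2 gave 5 and 1.

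**Figure D2:**
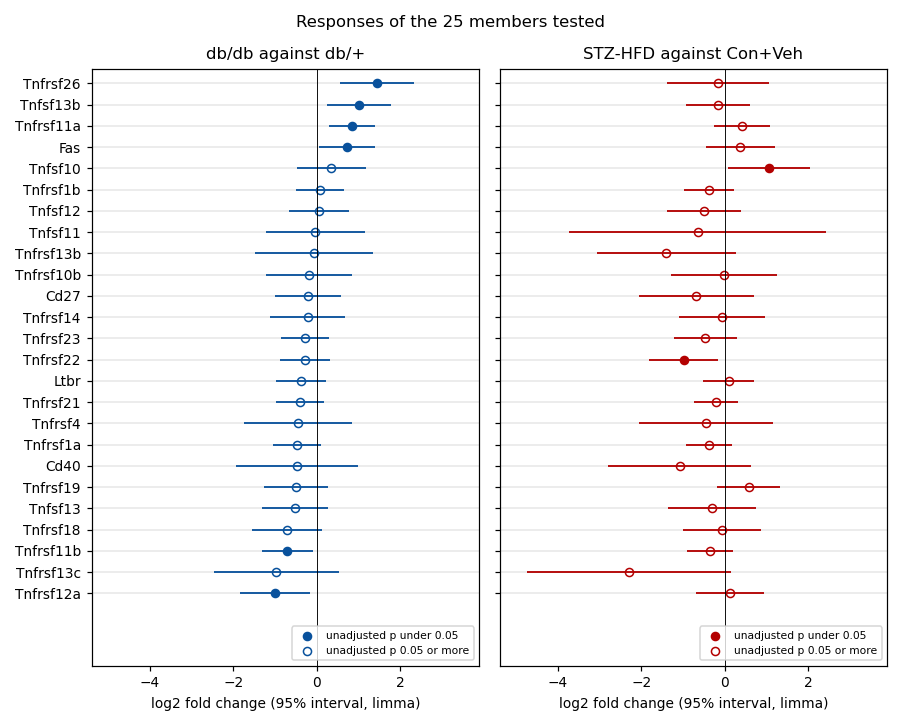
Log2 fold changes of the 25 members tested, with 95% intervals from limma, in db/db against db/+ (left) and STZ-HFD against Con+Veh (right), ordered by the db/db value. Filled points mark an unadjusted p under 0.05, which 6 members had in db/db and 2 in STZ-HFD, and none of them passed the adjusted threshold.

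More members lay below 0 than above it in both models. In db/db, 18 log2 fold changes were negative and 7 positive, with a median of -0.29 against -0.04 over all genes. Over all genes, the db/db log2 fold changes fell with GC content (Spearman correlation -0.43). After removal of this trend the split was 14 and 11. In STZ-HFD, 19 were negative and 6 positive, with a median of -0.31 against -0.04, and edgeR, DESeq2 and voom without weights each gave 14 and 11. In all, 15 of 25 were negative in both models and 3 positive in both, and no test was made of these counts.

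*Tnf* itself, the founding cytokine of the family, was too low to test. Its counts were 4, 8 and 12 in the db/+ libraries and 12, 18 and 4 in db/db. They were 19, 24, 18 and 2 in Con+Veh and 12, 35, 6 and 18 in STZ-HFD. The groups of each model overlapped, with sums of 24 counts in db/+, 34 in db/db, 63 in Con+Veh and 71 in STZ-HFD.

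Its main receptor *Tnfrsf1a* (ENSMUSG00000030341, chromosome 6 from 125349362 to 125362484 of GRCm38), which carries a death domain and is found on nearly all cells, was at 23.6, 26.4 and 17.9 CPM in db/+ and 16.5, 12.1 and 22.1 CPM in db/db. In Con+Veh it was at 14.9, 9.70, 17.7 and 23.6 CPM, and in STZ-HFD at 7.48, 16.3, 15.7 and 13.0 CPM. Both pairs of groups overlapped, with log2 fold changes of -0.47 (95% interval -1.06 to 0.11) in db/db and -0.38 (-0.94 to 0.18) in STZ-HFD. With the GC trend removed, the db/db value was -0.08. The second receptor *Tnfrsf1b*, which lacks a death domain and is prominent on immune and endothelial cells, was at 11.3, 9.16 and 8.78 CPM in db/+ and 11.9, 10.6 and 8.36 CPM in db/db, giving a log2 fold change of 0.08 (-0.51 to 0.66). It was at 6.36, 5.49, 11.0 and 14.2 CPM in Con+Veh and 4.93, 12.5, 9.47 and 6.57 CPM in STZ-HFD, a log2 fold change of -0.37 (-0.97 to 0.22). On the gene counts, these intervals leave out a change of 2-fold or more in either direction for *Tnfrsf1b* in both models, and a doubling for *Tnfrsf1a*. Estimated counts from Salmon, summed per gene, put *Tnfrsf1a* at 1.57 in db/db and 0.94 in STZ-HFD (limma adjusted p 0.213 and 0.867). They held 559 counts of *Tnfrsf1a* against 10531 gene counts, and 0 of *Tnfrsf1b* against 5677. The limits therefore rest on the gene counts alone.

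In db/db, the receptor and the decoy of the RANK axis were both free of overlap with db/+, as were 25.8% of all genes tested. *Tnfrsf11a*, the RANK receptor through which osteoclast precursors are driven to differentiate (ENSMUSG00000026321, chromosome 1 from 105780718 to 105847981), was at 3.92, 6.68 and 4.93 CPM in db/+ and 7.11, 8.83 and 12.6 CPM in db/db. All db/db libraries lay above all db/+ libraries, by a log2 fold change of 0.85 (SE 0.26, limma adjusted p 0.0875). The value was 0.80 with the GC trend removed (limma adjusted p 0.142). *Tnfrsf11b*, the decoy that keeps RANKL from RANK (ENSMUSG00000063727, chromosome 15 from 54250619 to 54278484), was at 17.6, 23.6 and 19.9 CPM in db/+ and 13.7, 10.05 and 14.5 CPM in db/db. All db/db libraries lay below, by a log2 fold change of -0.71 (SE 0.29, limma adjusted p 0.181), which became -1.01 (adjusted p = 0.0974) once the GC trend was removed.

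Per exon length, the level of the decoy *Tnfrsf11b* was 9.56, 7.52 and 8.59 times that of the receptor *Tnfrsf11a* in the db/+ libraries and 4.08, 2.42 and 2.44 times in db/db. The ratio was 26.3, 14.8, 16.2 and 12.3 in Con+Veh and 12.2, 5.35, 6.32 and 14.03 in STZ-HFD. The db groups did not overlap and the other groups did. The ratio was formed after the values of both genes were seen and was not tested. The ligand itself, *Tnfsf11* (RANKL), was scarce, with 42, 22 and 52 counts in db/+ and 37, 44 and 38 in db/db. It had 6, 4, 4 and 0 counts in Con+Veh and 39, 0, 0 and 8 in STZ-HFD, where most counts of the group came from replicate 1. The osteoclast markers, 8 genes, summed to 116 to 327 CPM in db/db and 237 to 413 CPM in db/+ with none called, and bone cell markers to 9364 to 15450 against 16922 to 19210 CPM. *Mmp9* made up most of the osteoclast sum, at a mean of 148 CPM in db/db and 238 in db/+. Of 6 osteoclast markers tested, 2 were above 0 and 4 below. *Col1a1* held most counts of the bone cell markers, of which 1 was above 0 and 9 below. In bulk discs, fewer cells of a type and less RNA per cell cannot be told apart, and the part of such cells in the values of the RANK axis was not tested.

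Markers of other tissues also moved with db/db. Of the 8 adipocyte markers, all were above 0 and 4 were called higher, and they summed to 276 to 477 CPM in db/db against 96.1 to 145 CPM in db/+. Of the 8 endothelial markers, 7 were above 0 with 1 called, at 270 to 338 CPM in db/db against 168 to 241 CPM. The 10 skeletal muscle markers were all below 0 with 1 called, at 3548 to 6049 CPM against 5409 to 10605 CPM. Their part in the db/db values of the members was not tested.

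In STZ-HFD, *Tnfrsf11a* was at 3.45, 5.43, 5.50 and 4.37 CPM against 2.53, 4.94, 3.901 and 2.93 CPM in Con+Veh, giving a log2 fold change of 0.42 (95% interval -0.26 to 1.09). *Tnfrsf11b* was at 19.8, 13.7, 16.4 and 28.9 CPM against 31.2, 34.4, 29.8 and 17.1 CPM, a log2 fold change of -0.35 (-0.90 to 0.20). The groups overlapped for both genes. The 95% interval of the difference between the responses included 0 for both, at 0.43 (-0.44 to 1.30) for the receptor and -0.35 (-1.18 to 0.47) for the decoy.

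*Tnfsf13b* encodes BAFF, the survival factor of B cells (ENSMUSG00000031497, chromosome 8 from 10006467 to 10039072). It was at 1.07, 1.27 and 0.979 CPM in db/+ and 2.56, 2.699 and 1.63 CPM in db/db. Every db/db library was above every db/+ library. *Tnfsf13b* had a log2 fold change of 1.01 (SE 0.36, limma adjusted p 0.128), or 0.88 with the GC trend removed (limma adjusted p 0.260). In Con+Veh it was at 1.71, 1.10, 2.63 and 2.44 CPM and in STZ-HFD at 3.25, 2.41, 1.77 and 1.81 CPM, overlapping groups with a log2 fold change of -0.17 (SE 0.37). The difference between the responses was 1.18 (SE 0.51, limma p of 0.0343, or 0.241 once adjusted).

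Of 10 B cell markers 5 could be tested, with 3 above and 2 below 0 in db/db, all 5 below 0 in STZ-HFD and none called. Most of their counts in every library were those of *Ebf1*, which had 3223 to 3523 counts in db/+ and 6169 to 8653 in db/db, whereas no other marker of the list exceeded 187 counts in a library. *Ebf1* is also known from adipocytes and other stromal cells. Their part in the *Tnfsf13b* values was not tested. The related ligand *Tnfsf13* (APRIL) was at 1.68, 1.2 and 2.16 CPM in db/+ and 1.09, 1.28 and 0.990 CPM in db/db, overlapping groups with a log2 fold change of -0.52 (SE 0.38). In STZ-HFD it was at 1.36, 0.688, 0.590 and 1.52 CPM against 0.734, 0.686, 1.32 and 1.41 CPM in Con+Veh, giving a log2 fold change of -0.31 (SE 0.50), and it shared 60.0% of its exon bases with *Tnfsfm13*.

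Receptors of these ligands, which mark B cells and plasma cells, were near the minimum level. *Tnfrsf13b* (TACI) was at 0.287, 0.539 and 0.637 CPM in db/+, 0.566, 0.718 and 0.220 CPM in db/db, 1.74, 0.208, 1.03 and 1.09 CPM in Con+Veh and 1.07, 0.206, 0.248 and 0.357 CPM in STZ-HFD. *Tnfrsf13c* (BAFF receptor) was at 1.31, 0.504 and 0.715 CPM in db/+ and 0.142, 0.876 and 0.377 CPM in db/db. It was at 0.163, 0.270, 1.13 and 0.543 CPM in Con+Veh and 1.36, 0, 0.124 and 0.178 CPM in STZ-HFD, so the group's highest library was replicate 1 and the other 3 libraries lay at or below 0.178 CPM. Its log2 fold change of -2.29 (SE 1.16, limma adjusted p 0.314) was the lowest of the family in that fit and was -0.34 in edgeR's quasi-likelihood test and -1.25 in voom without weights. It did not reach the minimum level for testing without STZ-HFD replicate 1. *Tnfrsf17* (BCMA), a plasma cell receptor, was too low to test, with 0 to 40 counts per library.

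*Tnfrsf26* had the largest positive log2 fold change in db/db. It lies beside the genes of the decoy TRAIL receptors *Tnfrsf22* and *Tnfrsf23*, and all 3 lie on the minus strand of chromosome 7 between 143607659 and 143685872. *Tnfrsf26* (ENSMUSG00000045362) was at 0.718, 0.626 and 1.24 CPM in db/+ and 1.61, 2.90 and 2.34 CPM in db/db. The groups did not overlap, and the log2 fold change was 1.45 (SE 0.42, limma adjusted p 0.0744), the smallest adjusted p of any member. With the GC trend removed, *Tnfrsf26* had a log2 fold change of 1.18 (limma adjusted p 0.173). Its count per library was 35 to 80 in db/+ and 102 to 202 in db/db.

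In Con+Veh, *Tnfrsf26* was at 0.815, 0.665, 0.893 and 1.14 CPM, and in STZ-HFD at 2.38, 1.17, 0.404 and 1.10 CPM, with replicate 1 again the highest library. The log2 fold change was -0.16 (SE 0.58) with that library and -0.38 without it, and edgeR's quasi-likelihood test turned the sign to 0.53. The difference between the responses was 1.61 (SE 0.72, limma p of 0.0379, or 0.252 once adjusted), against 0.87 in edgeR's quasi-likelihood test.

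The groups were not separated for the neighbors. *Tnfrsf22* was at 5.68, 4.50 and 7.18 CPM in db/+ and 3.76, 4.67 and 5.39 CPM in db/db, overlapping groups with a log2 fold change of -0.29 (95% interval -0.89 to 0.31). *Tnfrsf23* was at 7.04, 8.97 and 12.4 CPM in db/+ and 5.73, 7.45 and 9.79 CPM in db/db, also overlapping, with a log2 fold change of -0.29 (-0.86 to 0.28). In the annotated transcripts, *Tnfrsf22* and *Tnfrsf23* shared 719 stretches of 50 bases, 17.3% and 18.0% of those in each gene, so reads may have been divided between them, whereas *Tnfrsf26* shared 0 with either.

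In STZ-HFD, *Tnfrsf22* (ENSMUSG00000010751) was at 3.54, 2.03, 1.12 and 2.79 CPM against 1.74, 3.03, 4.23 and 4.18 CPM in Con+Veh. The groups overlapped, and the log2 fold change was -0.98 (SE 0.39, limma adjusted p 0.189), -1.13 without STZ-HFD replicate 1 and -0.47 in edgeR's quasi-likelihood test. *Tnfrsf23* was at 2.06, 2.68, 3.48 and 3.42 CPM against 1.41, 4.86, 5.17 and 4.07 CPM, overlapping groups with a log2 fold change of -0.46 (SE 0.36). The group means of *Tnfrsf22* were 5.79 and 4.61 CPM in db/+ and db/db and 3.296 and 2.37 CPM in Con+Veh and STZ-HFD, and the cohorts were not compared by a test.

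*Tnfsf10* encodes TRAIL, the ligand of these receptors, which can trigger apoptosis (ENSMUSG00000039304, chromosome 3 from 27317028 to 27342427). It was at 0.706, 1.56, 0.799 and 1.30 CPM in Con+Veh and 1.85, 1.10, 2.95 and 2.08 CPM in STZ-HFD. STZ-HFD replicates 1, 3 and 4 lay above every Con+Veh library and replicate 2 within their range, with a log2 fold change of 1.07 (SE 0.46, limma adjusted p 0.232), and 1.12 without STZ-HFD replicate 1. Salmon assigned *Tnfsf10* 9 estimated counts over all libraries, against 881 gene counts. In db/+ it was at 1.13, 1.32 and 0.979 CPM and in db/db at 2.22, 1.35 and 1.07 CPM, overlapping groups with a log2 fold change of 0.35 (SE 0.39).

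The signaling TRAIL receptor of the mouse, *Tnfrsf10b* (ENSMUSG00000022074, chromosome 14 from 69767472 to 69784411), had the most uneven values of the family. It was at 2.11, 3.03 and 3.48 CPM in db/+, 2.27, 2.96 and 2.28 CPM in db/db and 1.87, 2.97, 2.21 and 1.63 CPM in Con+Veh, but at 75.0, 1.68, 1.37 and 1.75 CPM in STZ-HFD. STZ-HFD replicate 1 held 1824 counts, where the other 13 libraries had 30 to 224, and its CPM was 21.5 times the highest of the others. The log2 fold change was -0.01 (SE 0.61) in the limma fit, where that library had a weight of 0.379, 0.72 in voom without weights and 3.18 in edgeR's quasi-likelihood test (adjusted p 0.223). Without that library the limma value was -0.44.

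In the same library the genes on either side of *Tnfrsf10b* had 181 counts for *Chmp7* and 235 for *Rhobtb2*, against 246 to 343 and 214 to 325 in STZ-HFD replicates 2 to 4. The transcript table assigned 9 estimated counts to the main *Tnfrsf10b* transcript in STZ-HFD replicate 1 and 8.2 to 23 in the other STZ-HFD libraries. In all, 29 genes had a CPM at least 10 times that of every other library in STZ-HFD replicate 1, against 0 to 2 in each of the remaining libraries.

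**Figure D3:**
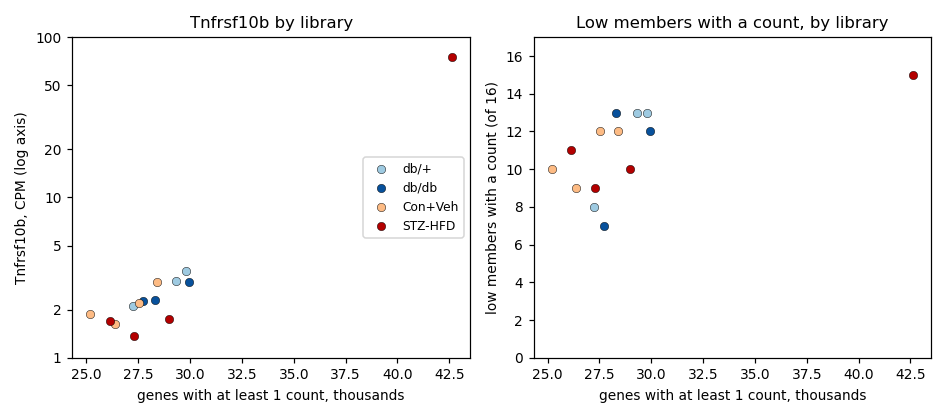
*Tnfrsf10b* level (left, CPM, log axis) and number of the 16 low members with at least 1 count (right) against the number of genes detected, with 1 point per library colored by group. STZ-HFD replicate 1 lies alone at 42626 genes, with 75.0 CPM of *Tnfrsf10b* and 15 of the 16 low members detected.

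*Fas*, the death receptor that is the prototype of receptor-driven apoptosis (ENSMUSG00000024778, chromosome 19 from 34290666 to 34327772), was at 2.48, 5.11 and 5.70 CPM in db/+ and 5.44, 7.49 and 8.28 CPM in db/db. The groups overlapped narrowly, at db/db replicate 1, with a log2 fold change of 0.72 (SE 0.32, limma adjusted p 0.209), which was 0.44 with the GC trend removed. Estimated counts from Salmon gave 0.32 (limma adjusted p 0.921), with 106 counts against 3163 gene counts for *Fas*. In Con+Veh it was at 3.21, 5.92, 3.81 and 1.68 CPM and in STZ-HFD at 3.12, 3.30, 4.63 and 4.46 CPM, a log2 fold change of 0.38 (SE 0.40). Its ligand *Fasl*, a product of T and NK cells, had 19 counts in all 14 libraries together, 14 of them in STZ-HFD replicate 1.

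*Tnfrsf12a*, the TWEAK receptor FN14, which is induced by injury and growth factors (ENSMUSG00000023905, chromosome 17 from 23675445 to 23677468), was at 4.66, 6.77 and 2.18 CPM in db/+ and 3.16, 1.61 and 1.93 CPM in db/db. The groups overlapped at db/+ replicate 3, with a log2 fold change of -1.0 (SE 0.40, limma adjusted p 0.161), and it was -0.60 with the GC trend removed. In Con+Veh it was at 7.72, 3.95, 4.61 and 3.37 CPM and in STZ-HFD at 3.17, 5.98, 4.01 and 5.35 CPM, a log2 fold change of 0.13 (SE 0.38). The difference between the responses was -1.13 (95% interval -2.29 to 0.03).

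The ligand TWEAK, *Tnfsf12*, was at 3.65, 5.55 and 6.34 CPM in db/+ and 4.67, 4.18 and 7.59 CPM in db/db, giving a log2 fold change of 0.05 (95% interval -0.68 to 0.78). In Con+Veh it was at 1.195, 4.03, 6.53 and 3.15 CPM and in STZ-HFD at 1.36, 3.58, 3.04 and 3.69 CPM, a log2 fold change of -0.49 (-1.38 to 0.39). The groups of both models overlapped.

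**Figure D4:**
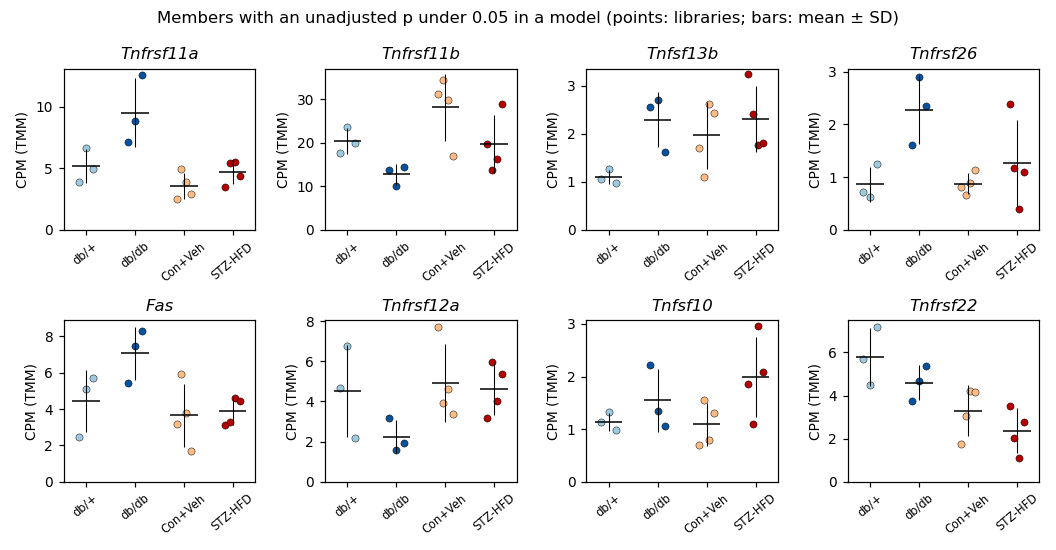
CPM of the 8 members with an unadjusted p under 0.05 in either model, with 1 point per library and bars for the mean and SD of each group. *Tnfrsf11a*, *Tnfsf13b* and *Tnfrsf26* have every db/db point above every db/+ point and *Tnfrsf11b* every db/db point below, while no pair of STZ-HFD and Con+Veh groups is separated. Of all genes tested, 25.8% were free of overlap between db/db and db/+.

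Among the lymphotoxin genes, the receptor *Ltbr*, which organizes lymphoid tissue and signals through non-canonical NF-κB, was well measured. It was at 11.3, 13.7 and 9.75 CPM in db/+ and 7.43, 6.56 and 14.6 CPM in db/db, overlapping groups with a log2 fold change of -0.38 (95% interval -0.98 to 0.21), and the sign turned with the GC trend removed, at 0.10. In Con+Veh it was at 9.02, 5.94, 9.78 and 9.45 CPM and in STZ-HFD at 9.21, 15.3, 10.1 and 7.85 CPM, a log2 fold change of 0.10 (-0.51 to 0.70). The ligand *Ltb* had 4 counts in db/+, 17 in db/db, 33 in Con+Veh and 45 in STZ-HFD, summed over each group's libraries, and *Lta* had 53, 105, 6 and 31.

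The neural and stem cell receptor *Tnfrsf19* (TROY) was at 4.14, 3.91 and 3.54 CPM in db/+ and 2.45, 3.43 and 2.39 CPM in db/db. Every db/db library was below every db/+ library, but narrowly, with a log2 fold change of -0.49 (SE 0.37, limma adjusted p 0.458). In STZ-HFD it was at 7.24, 2.92, 7.45 and 5.74 CPM against 0.679, 5.22, 4.04 and 4.78 CPM in Con+Veh, giving a log2 fold change of 0.57 (SE 0.36), and the difference between the responses was -1.07 (95% interval -2.15 to 0.02). With *Tnfrsf11a*, *Tnfrsf11b*, *Tnfsf13b* and *Tnfrsf26*, 5 of 25 members (20%) were free of overlap between db/db and db/+, 3 higher and 2 lower, where 25.8% of all genes tested were, 14.1% higher and 11.7% lower. In STZ-HFD it was 0 of 25, where 4.74% were.

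The remaining receptors had no unadjusted p under 0.05 in either model. *Tnfrsf21* (DR6), a death receptor of neurons and immune cells, was at 34.1 ± 10.03 CPM in db/+ and 25.2 ± 2.696 in db/db (SD, n = 3), and at 23.2 ± 6.92 in Con+Veh and 21.4 ± 7.83 in STZ-HFD (SD, n = 4). The costimulatory receptors of lymphocytes, *Cd27*, *Cd40*, *Tnfrsf4* (OX40), *Tnfrsf14* (HVEM) and *Tnfrsf18* (GITR), had log2 fold changes of -0.70 to -0.21 in db/db and -1.07 to -0.06 in STZ-HFD. Each 95% interval included 0. In db/db the signs of *Cd27* and *Tnfrsf14* turned once the GC trend was removed, to 0.06 and 0.07. In STZ-HFD that of *Tnfrsf14* turned in edgeR's quasi-likelihood test, to 0.19, and that of *Cd40* in voom without weights, to 0.45. T cell markers, 12 genes of which 3 could be tested, summed to 3.20 to 12.1 CPM over the 14 libraries. *Tnfrsf18* shared 27.2% of its exon bases with an antisense gene, and whether counting used the strand is not given in the sources used here.

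The 16 members too low to test were 4 receptors, *Tnfrsf8*, *Tnfrsf9*, *Tnfrsf17* and *Tnfrsf25*, and 12 ligands. The ligands were *Tnf*, *Lta*, *Ltb*, *Fasl*, *Cd70*, *Cd40lg*, *Tnfsf4*, *Tnfsf8*, *Tnfsf9*, *Tnfsf14*, *Tnfsf15* and *Tnfsf18*. Their totals over 14 libraries ran from 5 counts for *Cd70* to 339 for *Tnfsf9*, the ligand of the costimulatory receptor 4-1BB. STZ-HFD replicate 1, the library of lowest total count, had the highest count for 7 of the 16 and the highest CPM for 9. It held 35 of the 47 counts of *Cd40lg*, 54 of the 98 of *Tnfsf15* and 34 of the 84 of *Tnfsf8*. These ligands are known mainly from activated T cells, myeloid cells and endothelium. *Tnfrsf9* (4-1BB) had 0, 9, 7 and 23 counts in Con+Veh and 26, 0, 0 and 0 in STZ-HFD, so the groups overlapped. Where a member had 0 counts in a library, the floor of 3 counts allows up to 0.0509 to 0.187 CPM, by library.

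Between the models, 0 of 25 members differed in their response (db/db log2 fold change minus STZ-HFD log2 fold change), against 1.77% of all genes tested. At an unadjusted p under 0.05 there were 2, *Tnfrsf26* and *Tnfsf13b*, 8% of the members against 17.3% of all genes. For this difference, edgeR's quasi-likelihood test gave 1 member and DESeq2 0 at an unadjusted p under 0.05. Both called 0 members, where edgeR called 5 and DESeq2 253 of all genes tested.

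Downstream of the receptors, 105 genes in 7 lists were examined, of which 90 could be tested. None was called in db/db by limma, where 18 had an unadjusted p under 0.05, 8 with higher and 10 with lower values, against 10.7% and 10.4% of all genes. DESeq2 also called 0 of them. So did edgeR's quasi-likelihood test, but it called 0 of all genes in db/db and could not have given another count. In STZ-HFD 2 genes were called lower and 0 higher, against 1.31% and 1.3% of all genes, and at an unadjusted p under 0.05 there were 4 with higher and 9 with lower values, against 8.34% and 9.54%. Both calls were lost in edgeR's quasi-likelihood test, in voom without weights, with no filter on low counts, and without Con+Veh replicate 3, Con+Veh replicate 4 or STZ-HFD replicate 3, and there were 6 calls without Con+Veh replicate 2. The db/db log2 fold changes of single pathway genes below are given without removal of the GC trend. Over all genes, db/db values fell with GC content (Spearman correlation -0.43).

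The first was *Adam10*, from a list of 9 genes of ligand processing and shedding of which 8 could be tested, a membrane protease that sheds the ectodomains of many surface proteins, TNF superfamily members among them. It was at 103, 73.9, 125 and 106 CPM in Con+Veh and fell to 31.4, 46.7, 53.5 and 59.3 CPM in STZ-HFD, with every STZ-HFD library below every Con+Veh library. The log2 fold change was -1.13 (SE 0.19, limma adjusted p 0.00658). *Adam10* had no value with Salmon gene totals, so this call rests on the gene counts alone. In db/+ it was at 55.1, 71.9 and 68.9 CPM and in db/db at 85.1, 98.1 and 73.6 CPM, and the difference between the responses, 1.51 (SE 0.30, limma adjusted p 0.0236), was called.

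The second was *Dap*, which encodes a small death-associated protein and is listed with the death effectors although it is not part of the receptor complexes. It was at 241, 137, 286 and 313 CPM in Con+Veh and fell to 52.5, 141, 86.5 and 129 CPM in STZ-HFD, where replicate 2 lay just above the lowest Con+Veh library. The log2 fold change was -1.41 (SE 0.23, limma adjusted p 0.00567). Muscle markers moved with this comparison, with 4 of 10 called higher in STZ-HFD, and so did macrophage markers, with 3 of 10 called lower and summed levels of 88.7 to 173 CPM against 124 to 260 CPM. Their part in the *Adam10* and *Dap* values was not tested.

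Among the adaptors and ubiquitin ligases, 20 of 23 genes could be tested and none was called in either model. The smallest unadjusted p of this list in db/db belonged to *Cyld*, a deubiquitinase that limits NF-κB signaling, with a log2 fold change of 1.05 (SE 0.32, limma adjusted p 0.0892). *Cyld* had 0.93 (SE 0.29, limma adjusted p 0.0892) in STZ-HFD. The groups overlapped there, at 17.6 to 47.1 CPM in STZ-HFD (mean 33.2) and 12.8 to 50.5 CPM in Con+Veh (mean 24.8). The adaptors *Traf5* and *Rbck1* were at -0.92 and -0.70 in db/db, and the inhibitor of apoptosis *Birc3* at -0.71 in STZ-HFD.

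Among the 16 kinases, all tested, the JNK gene *Mapk8* had log2 fold changes of 1.07 (SE 0.39) in db/db and 0.84 (SE 0.35) in STZ-HFD. In STZ-HFD *Mapk8* was at 17.4 to 59.1 CPM (mean 35.4), within the 13.9 to 74.2 CPM of Con+Veh (mean 31.6). The necroptosis kinase *Ripk3* was at -0.86 and *Tab1*, a partner of the kinase TAK1, at -0.80 in db/db. None was called. Among the 14 death effectors, *Bak1* and *Bax*, which encode the pore-forming proteins of the mitochondrial route, were at -0.61 and -1.54 in db/db, and neither was called.

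Of 25 genes known to be induced by TNF, 17 could be tested and none was called by limma in either model. In db/db, 4 had an unadjusted p under 0.05, all positive. Over all genes, 10.7% were positive and 10.4% negative at that threshold. The 4 were the neutrophil and tissue lipocalin *Lcn2* at 1.49, the adhesion molecule *Vcam1* at 1.11, the hyaluronan-binding protein *Tnfaip6* at 0.83 and *Tnfaip8* at 0.78. In STZ-HFD, 4 were negative and 1 positive at that threshold, where 9.54% and 8.34% of all genes were. They were *Lcn2* at -1.98, *Tnfaip6* at -1.14, *Csf1* at -0.83 and *Birc3* at -0.71, and the superoxide dismutase *Sod2* at 0.63. No test was made of these counts.

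*Lcn2* was at 5.13, 16.7 and 5.84 CPM in db/+ and 16.7, 31.2 and 24.6 CPM in db/db, and at 2.34, 4.63, 11.4 and 28.6 CPM in Con+Veh against 1.64, 4.64, 3.11 and 3.00 CPM in STZ-HFD. Its responses differed between the models by 3.47 (SE 0.81, limma adjusted p 0.0393), the second of the 2 pathway genes called for the difference. Over 14 fits that left out a library in turn, this call was made in 3 and the *Adam10* call for the difference in 9. Both were lost in edgeR's quasi-likelihood test, at 3.30 for *Lcn2* (adjusted p 0.204) and 1.49 for *Adam10* (adjusted p 0.163), and with the GC trend removed, at 3.57 (limma adjusted p 0.0503) and 1.31 (limma adjusted p 0.0557). DESeq2 and limma with the replicate number as a block called both. Neither gene had a value with Salmon gene totals. In STZ-HFD alone, *Lcn2* missed the threshold in limma (adjusted p 0.0934) and was called in DESeq2, at -1.89 (adjusted p 0.0438), and with the block, at -2.36 (limma adjusted p 0.00303). The block also called it in db/db, at 1.61 (limma adjusted p 0.0058). Neutrophil markers, 10 genes of which 2 could be tested, summed to 1.76 to 22.6 CPM in db/db against 0.713 to 5.5 CPM in db/+, and to 1.204 to 6.5 CPM in STZ-HFD against 1.21 to 15.7 CPM in Con+Veh, and their part in the *Lcn2* values was not tested.

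Of 14 genes that RANK signaling induces in osteoclasts, 11 could be tested and none was called. *Nfatc1*, the transcription factor that directs osteoclast differentiation, was at -0.73 in STZ-HFD (SE 0.25, limma adjusted p 0.116), and *Clcn7*, a chloride channel of the bone-resorbing membrane, at -0.91 in db/db (SE 0.31, limma adjusted p 0.116). Of 7 relatives of the family that the naming rule left out, 6 were tested. The receptor *Relt* was at -0.99 in db/db (adjusted p = 0.0875) and the ectodysplasin receptor *Eda2r*, a target of p53, at 1.09 in STZ-HFD (adjusted p = 0.106, both by limma).

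The promoters of the members were examined for the motifs of the factors on which TNF receptors converge. RefSeq promoters, 250 bases before to 50 after a start site on GRCm38.p6, were at hand for 31 of the 41 members and for 27025 genes in all. The NF-κB motif, taken as 3 G, any 2 bases, 3 T and 2 C in that order and sought on both strands, occurred in 3 of the 31 members and in 1.89% of all genes with a promoter, and all 3 members were too low to test. Their matches are shown 5′ to 3′ on the strand of the gene, with the motif in capitals, which in *Ltb* and *Tnfrsf25* reads on the other strand.

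*Ltb* (chr17:35194410-35194439): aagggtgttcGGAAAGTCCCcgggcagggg

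*Tnfrsf9* (chr4:150927946-150927975): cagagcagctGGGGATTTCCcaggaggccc

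*Tnfrsf25* (chr4:152115706-152115735): tgagacccagGGAAAAGCCCctggctctgg

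The AP-1 motif TGANTCA, to which the factors downstream of JNK bind, sought likewise on both strands, occurred in 6 of the 31 members and in 8.97% of all genes. Of the members that could be tested, 3 held a match, *Tnfsf13b* and *Fas*, both with an unadjusted p under 0.05 in db/db, and *Tnfsf13*, which did not reach it in either model. The 3 matches are shown in the same way. A match describes the letters of the window and not a bound site.

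*Tnfsf13b* (chr8:10006496-10006522): ttgtctggagTGAGTCAgtctgaaccc

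*Fas* (chr19:34290438-34290464): tgtgcagtggTGAGTCAgtgggtttcc

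*Tnfsf13* (chr11:69685671-69685697): cattcatgccTGAGTCAgagtctacca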

How the data were processed

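RNA of 14 libraries was sequenced by the authors, aligned with STAR to Ensembl release 101 and counted per gene with featureCounts, and the deposited gene values are raw counts. Strand and multimapping settings are not given in the sources used here. The deposited transcript values are estimated counts from Salmon, used summed per gene and rounded in 1 alternative. Repeated lines (287 of 55774) were used once. With R 4.3.3, edgeR 4.0.16 (TMM) and limma 3.58.1, genes above 1 CPM in at least 3 libraries (16915) were fitted with voomWithQualityWeights, 4 group means and 3 contrasts. Calls took a Benjamini-Hochberg adjusted p under 0.05 and a log2 change of 1 or more in size. Member CPM use TMM-scaled library sizes. Positions, exon lengths and GC content came from GENCODE M21 on GRCm38. The fit was also run on simulated counts that had no outlying library, and no result here rests on that run. DESeq2 1.42.0 and edgeR's quasi-likelihood test were alternatives. All members were named, with values by library for those with an unadjusted p under 0.05 and for fixed ligand-receptor axes. Members and lists were chosen with earlier results of these data known.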

Additional observations from a re-analysis of the deposited data

Results flagged for a closer look

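In the groups of 4 libraries, Con+Veh and STZ-HFD, each of the 25 members tested was examined for a library whose gap to its nearest neighbor, divided by the range of the group, exceeded Dixon's critical value. Of 50 such checks, 4 passed, where chance passes about 1 in 20, and all 4 concerned STZ-HFD replicate 1. *Tnfrsf10b* was at 75.0 CPM there, against 1.75 CPM in the nearest library. *Tnfsf11* was at 1.60 CPM against 0.238, and *Tnfrsf13c* at 1.36 CPM against 0.178. These 2 members passed the minimum level for testing through that same library, so their high values there cannot be set against the chance rate. *Tnfrsf18* was the lowest of its group there, at 1.32 CPM against 2.39. That library also had the lowest total count of the series and the most genes detected.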

How the results depend on the processing

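Some alternatives called few or none of all genes. Voom without weights called 9 in db/db, 19 in STZ-HFD and 3 for the difference, and edgeR's quasi-likelihood test 0, 29 and 5. The count of members called stayed at 0 in all 3 comparisons under every alternative except 1. With no filter on low counts, 1 member was called, *Tnfrsf9*, lower in STZ-HFD (log2 fold change -4.25, limma adjusted p 0.0345), and its STZ-HFD counts were 26, 0, 0 and 0, with the first from the library of low weight. With the replicate number as a block within each model, 0 members were called, and *Tnfrsf11a* had an adjusted p of 0.0367 in db/db at a log2 fold change of 0.89. The replicate block raised the pathway genes called in db/db from 0 to 5. Same-numbered libraries came from different mice, their deviations correlated at -0.28 to 0.19 in the db groups and -0.26 to -0.04 in the others, and 1 of 3 db/db libraries and 0 of 4 STZ-HFD libraries correlated best with the control of its own number. Each model fitted alone gave 2. Leaving out 1 library gave 0 to 1 in db/db, the 1 without Con+Veh replicate 2, and 0 to 6 in STZ-HFD, where 2 were called. In STZ-HFD, edgeR's quasi-likelihood test, voom without weights and no filter each gave 0, Salmon gene totals 1 and DESeq2 4. With Salmon gene totals 24 members could be tested, and *Tnfrsf1b* had 0 estimated counts against 5677 counts in the gene table. Of 1878 alternative log2 fold changes of members, 49 moved by at least the spread between replicates, 17 of them with Salmon gene totals, and 128 changed sign, none of them called. Depth limits the 16 low members, whose floor of 3 counts was 0.0509 to 0.187 CPM by library.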
